A study of Mus musculus with 18 samples.

Results

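The mitosis genes analysed here are 50 genes whose products build the spindle, attach and separate chromosomes, time the exit from mitosis or divide the cell. They were taken as a fixed list of gene symbols, and all 50 had a row among the 20878 genes of the deposited matrix. RNA was sequenced from 18 subcutaneous tumors of K7M2 cells, a mouse osteosarcoma line of Balb/c origin. The cells carried a control shRNA (ATRXCT) or an shRNA against Atrx (ATRXKD), which encodes a chromatin remodeler, and were grafted in Balb/c mice, which are immunocompetent, or in NSG mice (NOD.Cg-Prkdc scid Il2rg tm1Wjl/SzJ), which lack T, B and NK cells. There were 4 Balb/c ATRXCT tumors (mice 41, 43, 44 and 45), 4 Balb/c ATRXKD tumors (mice 56, 58, 59 and 60), 5 NSG ATRXCT tumors (mice 1 to 5) and 5 NSG ATRXKD tumors (mice 26 to 30). By the methods, hosts were females of 6 to 8 weeks, and whole cages were assigned to a kind of cell, so that cage and knock-down cannot be told apart. Whether a group of cells came from more than 1 transduction is not given in the sources used here, so p-values measure the spread between tumors of separate mice.

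Mitotic genes are switched on together late in the cell cycle. In resting cells and in G1 the DREAM complex holds them off, and later B-Myb (Mybl2) bound to the MuvB core, and then Foxm1, turn them on. Many are reached through a promoter element called the cell cycle genes homology region (CHR), often beside CCAAT boxes that bind NF-Y. Their summed RNA is a common measure of how much of a tumor is dividing. In mitosis and G1 the APC/C ubiquitin ligase destroys several of their proteins, so that the transcripts and the proteins follow different clocks.

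The CHR and CCAAT letters are shown first, as these are the promoter elements named above. RefSeq promoters (build GRCm38.p6) were at hand for 40 of the 50 genes. Those without an entry were Lmnb1, Aurkb, Tpx2, Smc4, Foxm1, Cdc25c, Incenp, Kif20a, Ccna2 and Dlgap5. Within 250 bases upstream of the start, TTTGAA or TTCGAA on either strand stood in 17 of the 40 genes (42.5%), against 19.55% of the 27025 genes of the table. CCAAT on either strand stood in 31 of the 40 (77.5%), against 37.49% of all genes. Both stood before the same start in 15 of the 40 (37.5%), against 7.001% of all genes. The 200 bases upstream of the start are given below for 3 genes that were higher in NSG ATRXKD tumors at an adjusted p under 0.05 (Bub1b, Ncapg and Ncapd2) and for 3 that were not (Cdk1, Cdc20 and Top2a), with these letters in capitals. The windows are chr2:118598011-118598210, plus strand, for Bub1b, chr5:45669725-45669924, plus strand, for Ncapg, and chr6:125191587-125191786, minus strand, for Ncapd2. Those of the other genes are chr10:69352913-69353112, minus strand, for Cdk1, chr4:118437344-118437543, minus strand, for Cdc20, and chr11:99024190-99024389, minus strand, for Top2a.
Bub1b: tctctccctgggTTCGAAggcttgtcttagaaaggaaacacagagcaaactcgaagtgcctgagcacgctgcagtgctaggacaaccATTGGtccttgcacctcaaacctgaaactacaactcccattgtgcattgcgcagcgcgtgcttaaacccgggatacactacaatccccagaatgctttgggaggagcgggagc
Ncapg: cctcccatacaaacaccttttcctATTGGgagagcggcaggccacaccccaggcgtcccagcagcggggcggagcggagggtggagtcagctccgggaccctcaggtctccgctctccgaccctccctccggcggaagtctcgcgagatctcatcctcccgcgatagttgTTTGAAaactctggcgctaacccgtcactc
Ncapd2: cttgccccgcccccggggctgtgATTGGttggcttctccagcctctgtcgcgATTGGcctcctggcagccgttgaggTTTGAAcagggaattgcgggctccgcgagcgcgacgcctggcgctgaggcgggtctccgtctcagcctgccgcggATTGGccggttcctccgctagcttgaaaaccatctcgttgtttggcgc
Cdk1: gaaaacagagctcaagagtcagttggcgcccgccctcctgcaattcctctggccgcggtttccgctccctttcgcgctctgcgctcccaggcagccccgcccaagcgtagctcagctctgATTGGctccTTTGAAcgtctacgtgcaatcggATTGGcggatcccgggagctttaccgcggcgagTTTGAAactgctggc
Cdc20: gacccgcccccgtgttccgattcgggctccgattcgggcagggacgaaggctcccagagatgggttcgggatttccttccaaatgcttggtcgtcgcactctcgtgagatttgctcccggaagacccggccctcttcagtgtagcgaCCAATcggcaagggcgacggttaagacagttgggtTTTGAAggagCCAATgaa
Top2a: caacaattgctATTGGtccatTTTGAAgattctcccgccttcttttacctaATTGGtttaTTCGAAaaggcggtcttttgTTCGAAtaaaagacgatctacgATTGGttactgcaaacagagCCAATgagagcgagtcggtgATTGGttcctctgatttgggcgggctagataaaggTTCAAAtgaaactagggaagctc
The CHR letters nearest the start began at position -15 in Cdk1, -18 in Cdc20, -30 in Ncapg and -23 in Top2a, but at -123 in Ncapd2 and -188 in Bub1b, counting the base before the start as -1. TTCGAA reads the same on both strands, and no CHR and CCAAT letters overlap in these windows. Genes with both sets of letters were 4 of the 11 with a promoter that were higher in NSG ATRXKD tumors and 11 of the 29 others, or 36.36% and 37.93%. The windows shown were picked among genes with both sets of letters, so finding both in them follows from that choice. A match describes the letters of the window and shows no binding.

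Values are FPKM, fragments per kilobase of a transcript after scaling to library size, and differences are on the log2(FPKM + 1) scale, which understates the change of low genes. The tumors held an estimated 15150000 to 24800000 fragments each, and the fewest estimated fragments of any of the 50 genes in any tumor was 311 (Cdc25c). For Cdc25c the counting error of the median estimate, 4.75% of the level, was about the SD between tumors in the tightest group (4.53%) and below the median SD of the 4 groups (16.4%). For 48 of the 50 genes it was under the SD of every group. Over all tumors the mean level ran from 4.97 FPKM for Kif14, a kinesin of the midbody, to 123 FPKM for Ube2c, the ubiquitin-conjugating enzyme of the APC/C. The ratio of highest to lowest tumor ran from 1.44-fold to 4.77-fold, with a median of 1.98-fold. Among osteoblast lineage markers Col1a1 and Runx2 were present, but Bglap, Ibsp and Sp7 were at or near 0 in every group. T cell and NK cell markers were at mean log2 levels of 2.46 and 2.89 in Balb/c ATRXCT tumors and of 0.37 and 0.026 in NSG ATRXCT tumors. Among the T cell markers Cd4 was not near 0, at 4.44 ± 1.15 FPKM (SD, n = 4) and 3.52 ± 2.28 FPKM (SD, n = 5) in these groups. The NSG tumors expressed Y-linked genes, unlike the Balb/c tumors, although both the hosts and the K7M2 line are stated to be female.

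Atrx itself was measured to check the labels. In NSG mice it was at 16.2, 11.6, 24.4, 15.1 and 20.5 FPKM in ATRXCT tumors and at 8.42, 16.4, 8.59, 8.88 and 8.59 FPKM in ATRXKD tumors, lower by 0.74 on the log2 scale (exact permutation test over 252 arrangements, two-sided p = 0.0317). By limma its adjusted p over all genes was 0.061. The tumor of mouse 27, at 16.4 FPKM, lay within the range of the controls. In Balb/c mice Atrx was at 13.4, 26, 10.3 and 20.7 FPKM in tumors labelled ATRXCT and at 21.5, 7.88, 9.11 and 17.3 FPKM in tumors labelled ATRXKD. These groups overlapped (exact permutation test over 70 arrangements, two-sided p = 0.486), with a log2 difference of -0.34 ± 0.36 (SE, limma, adjusted p = 0.999) that ran from -0.57 to -0.13 with 1 tumor left out and was -0.66 ± 0.28 (adjusted p = 0.39) with library weights. In Balb/c mice the RNA level of Atrx did not separate the labels, and directions drawn there rest on the labels and not on Atrx RNA. For the K7M2 line itself the paper reports, by western blot, that the shRNA depleted ATRX protein.

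**Figure D1:**
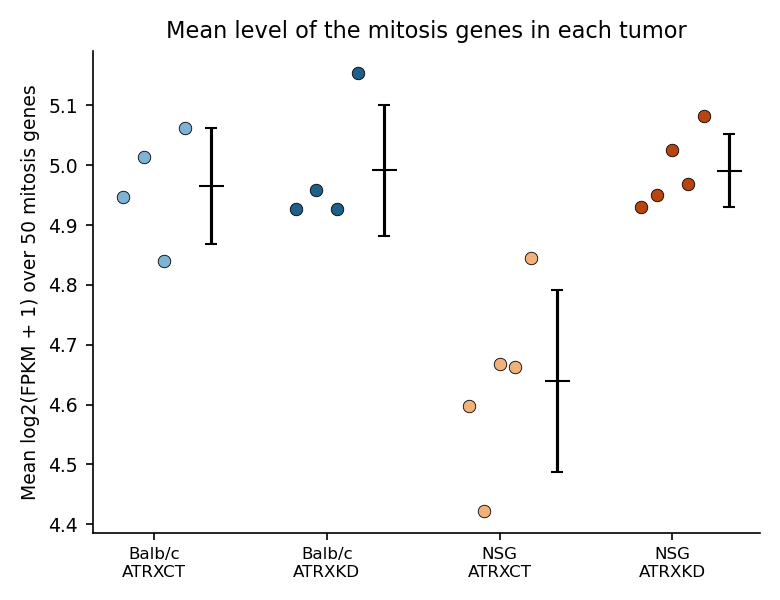
Mean log2(FPKM + 1) over the 50 mitosis genes in each tumor (points, in order of mouse number), with the mean and SD of each group (black). The 5 NSG ATRXCT tumors lie between 4.42 and 4.85 and the NSG ATRXKD tumors between 4.93 and 5.08.

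The NSG ATRXCT tumors had the lowest levels of mitotic genes of the 4 groups. Their mean log2 level over the 50 genes was 4.64 ± 0.15 (SD, n = 5), against 4.99 ± 0.06 (SD, n = 5) in NSG ATRXKD, 4.97 ± 0.10 (SD, n = 4) in Balb/c ATRXCT and 4.99 ± 0.11 (SD, n = 4) in Balb/c ATRXKD tumors. By group mean, NSG ATRXCT was the lowest group for 44 of the 50 genes and the highest for 0. The 6 exceptions were Birc5, Cdc20, Cdk1, Cenpa, Mad2l1 and Spc25. Within this group the tumor of mouse 2 was lowest (4.42), and it held the lowest value of all 18 tumors for 27 genes, while that of mouse 5 was highest (4.85). In bulk tumors fewer dividing cells and less of these RNAs per cell cannot be told apart.

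**Figure D2:**
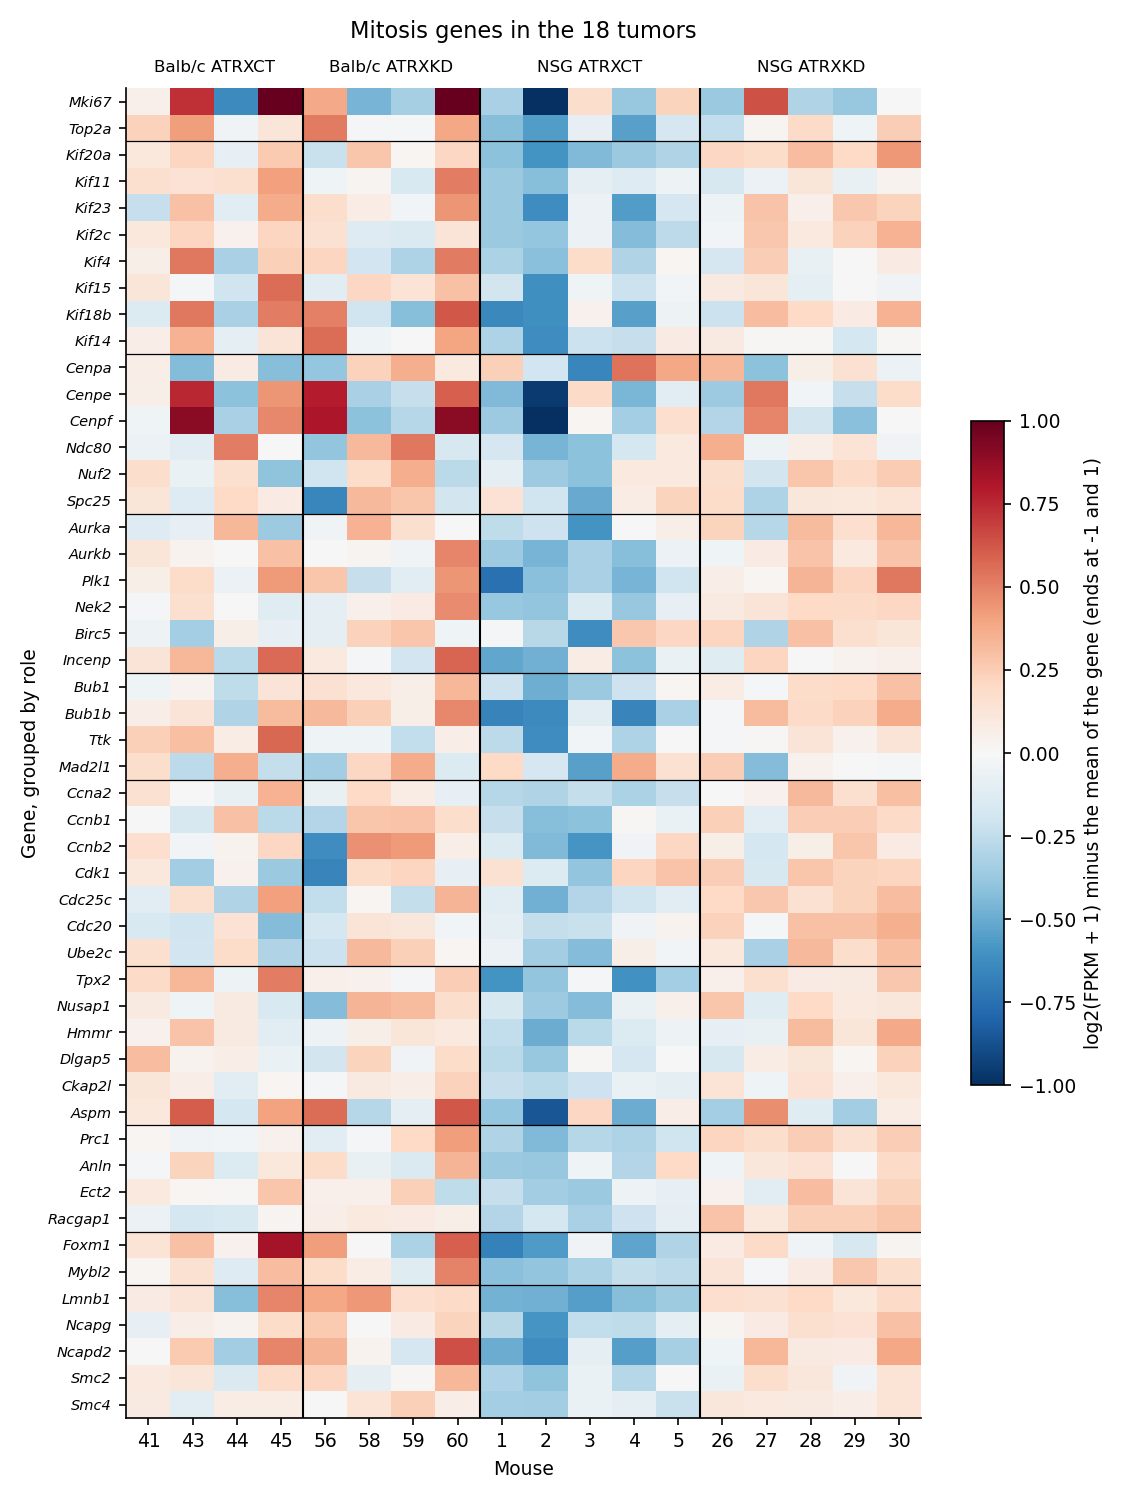
log2(FPKM + 1) of each mitosis gene (rows, grouped by role with thin lines between roles) in each tumor (columns, by group and mouse), minus the mean of that gene over the 18 tumors. The NSG ATRXCT columns are mostly blue, and Mki67, Cenpe, Cenpf and Aspm vary widely within groups.

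The first question was whether the knock-down changed the mitotic genes in mice without T, B and NK cells. In NSG mice 18 of the 50 genes were higher in ATRXKD tumors at an adjusted p under 0.05, against 3.73% of the 14654 genes tested, and 0 were lower, against 3.05% of genes. Genes with an adjusted p under 0.05 are said to have passed. All 18 stayed under 2-fold, so that at an adjusted p under 0.05 and a change of at least 2-fold 0 of the 50 were called, against 0.464% of genes. By sign, 48 of the 50 had a higher mean in ATRXKD tumors, with a median log2 difference of 0.34 (1.26-fold) beside -0.0014 over all genes tested. In 18 genes every ATRXKD tumor was above every ATRXCT tumor, against 4.36% of genes. The count moved with single tumors, and so did the share of all genes that were higher. It was 4 without ATRXKD mouse 30 (0.614% of all genes), 7 without mouse 28 (0.948%) and 10 without mouse 29 (1.11%). Without ATRXCT mouse 1 or mouse 4 it was 9 (1.20% and 1.06% of all genes). The median difference stayed between 0.29 and 0.39. For K7M2 the paper reports no significant rise of tumor growth rate with the knock-down in either host, and no rise of proliferation in vitro. RNA levels in bulk tumors do not measure growth rate.

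Mean levels of Y-linked genes and of markers of other cells also differed between these groups. Of the sets given here, only the Y-linked genes had ranges that did not overlap. The mean log2 level of 4 Y-linked genes, which Balb/c tumors lacked, ran from 2.62 to 3.04 in NSG ATRXCT and from 1.90 to 2.37 in NSG ATRXKD tumors. The mean of 8 macrophage markers ran from 7.70 to 8.37 and from 7.29 to 7.86, and that of 6 endothelial markers from 1.46 to 2.59 and from 2.11 to 2.54, in the same order. The macrophage markers were far from 0 in every tumor, and 7 of the 8 had a lower mean in NSG ATRXKD than in NSG ATRXCT tumors, among them Lyz2 (1655 ± 255 and 884 ± 360 FPKM in ATRXCT and ATRXKD, SD, n = 5 each). Csf1r, the receptor of the macrophage growth factor, went the other way, at 253 ± 53.9 FPKM in ATRXCT and 321 ± 19.6 FPKM in ATRXKD tumors (SD, n = 5 each). Of the 6 endothelial markers 5 had a higher mean in ATRXKD tumors, and Vwf was at 0.590 ± 0.429 and 0.528 ± 0.127 FPKM. The mean of 5 neutrophil markers was 3.30 ± 0.34 and 2.89 ± 0.45 (SD, n = 5 each) and that of 6 adipocyte markers 0.86 ± 0.24 and 1.81 ± 1.30. All 4 Y-linked genes had a lower mean, and all 6 adipocyte markers a higher one, in ATRXKD tumors. Their part in the difference was not tested.

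**Figure D3:**
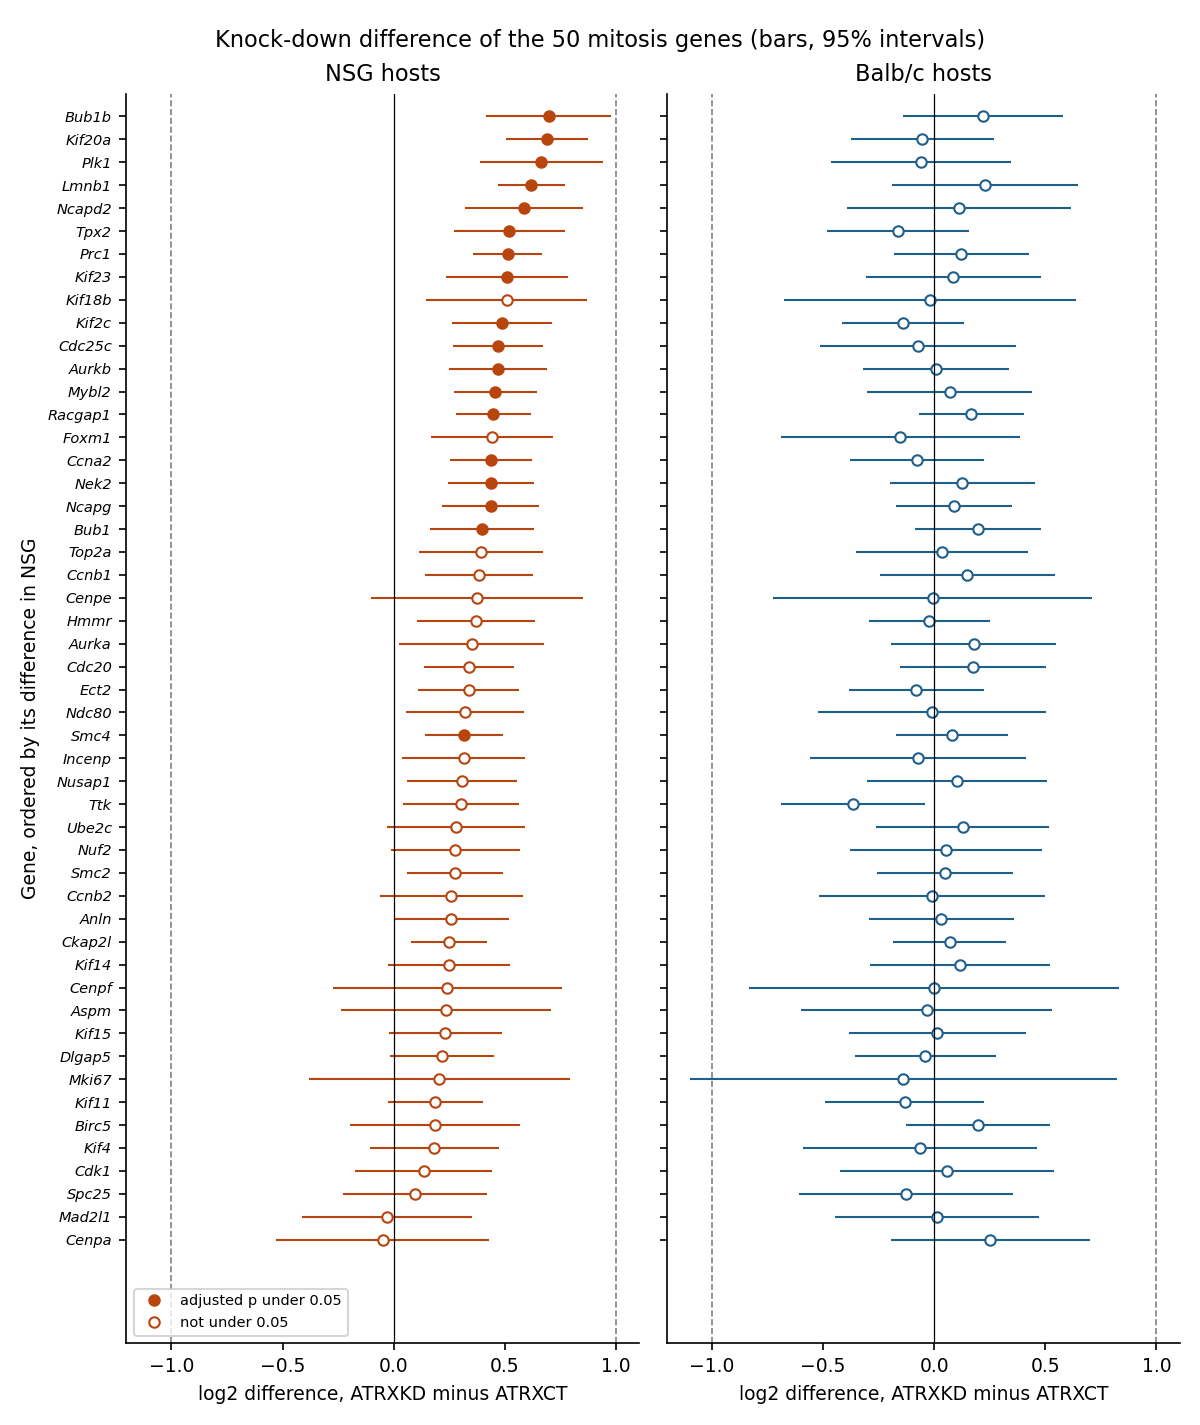
log2 difference (points) and 95% interval (bars) of each mitosis gene between ATRXKD and ATRXCT tumors, in NSG mice (left) and Balb/c mice (right), with dashed lines at 2-fold. Filled points mark the 18 genes with an adjusted p under 0.05, all in NSG mice and all below the dashed line.

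Mitotic kinesins move chromosomes and bundle the spindle, and 3 of the 8 (Kif20a, Kif23 and Kif2c) were higher. Kif20a (chr18:34624624-34633277 in mm10), which carries the chromosomal passenger complex to the central spindle, was at 30.7, 26.9, 30.2, 31.6 and 33.3 FPKM in NSG ATRXCT tumors and at 47.7, 47, 51.4, 47.4 and 55.9 FPKM in NSG ATRXKD tumors. The groups were far apart, with a log2 difference of 0.69 ± 0.08 (SE, adjusted p = 0.00478) or 1.61-fold. Kif23, the motor of the centralspindlin complex, differed by 0.51 ± 0.13 (SE, adjusted p = 0.0368), and Kif2c, which takes microtubules apart at kinetochores, by 0.49 ± 0.10 (SE, adjusted p = 0.0238). Kif11, which pushes the spindle poles apart, was at 30.8, 29.6, 37.3, 36.5 and 38.6 FPKM and at 35.7, 38.4, 43.6, 38 and 41.1 FPKM. These values overlapped (log2 difference 0.19 ± 0.10 SE, adjusted p = 0.244). Kif14, the lowest of the 50 genes, was at 3.75, 2.81, 4.05, 4.02 and 5.22 FPKM in ATRXCT and at 5.26, 4.93, 4.94, 4.19 and 4.91 FPKM in ATRXKD tumors, a log2 difference of 0.25 ± 0.13 (SE, adjusted p = 0.23). Kif18b, Kif15 and Kif4 did not pass, with differences of 0.51, 0.23 and 0.18.

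Of the spindle checkpoint kinases and their partners, which hold anaphase back until chromosomes are attached, 2 of 4 were higher. Bub1b (BubR1; chr2:118598211-118641592 in mm10), whose promoter is shown above, had the largest log2 difference of the 50 genes. It was at 9.64, 9.88, 14.7, 9.67 and 12.5 FPKM in NSG ATRXCT tumors and at 15.7, 19.99, 18.3, 18.8 and 20.9 FPKM in NSG ATRXKD tumors, 0.70 ± 0.13 (SE, adjusted p = 0.015) or 1.62-fold. The highest control, mouse 3, lay just below the lowest ATRXKD tumor, mouse 26. Bub1, the kinase that recruits other checkpoint proteins, was at 19.1, 15.5, 16.9, 19 and 22.5 FPKM and at 23.4, 21.9, 25.3, 25.6 and 27.4 FPKM. Here the control of mouse 5 exceeded the ATRXKD tumor of mouse 27, and the difference of 0.40 ± 0.11 (SE, adjusted p = 0.0477) was just inside the threshold. Ttk (Mps1), which starts checkpoint signalling, differed by 0.30 ± 0.12 (SE, adjusted p = 0.135). Mad2l1, the inhibitor of Cdc20, was one of the 2 genes with a lower mean in ATRXKD tumors (-0.03, adjusted p = 0.933).

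Mitotic kinases and chromosomal passengers gave 3 of 6. Plk1, the polo kinase of mitotic entry and centrosome maturation, was at 12.4, 15.8, 17, 15.3 and 18.6 FPKM in NSG ATRXCT tumors and at 22.6, 21.8, 27.5, 25.1 and 31.3 FPKM in NSG ATRXKD tumors, 0.66 ± 0.13 (SE, adjusted p = 0.0164) or 1.58-fold. Mouse 30 was the highest of all 18 tumors, and the groups did not overlap. Aurkb, the kinase of the passenger complex that corrects wrong attachments, was at 24.3, 22.5, 25, 23.1 and 30.3 FPKM and at 30.6, 33.4, 38.5, 33.8 and 38.6 FPKM. Its values were just apart, mouse 5 of the controls lying next to mouse 26 (0.47 ± 0.10 SE, adjusted p = 0.0254). Nek2, which splits centrosomes, differed by 0.44 ± 0.09 (SE, adjusted p = 0.0196). Aurka, the kinase of spindle poles, Birc5 (survivin) and Incenp did not pass (0.35, 0.18 and 0.31).

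Among the cyclins, Cdk1 and the partners of the APC/C, 2 of 7 were higher, Ccna2 by 0.44 ± 0.08 (SE, adjusted p = 0.0173) and Cdc25c, the phosphatase that activates Cdk1, by 0.47 ± 0.09 (SE, adjusted p = 0.0191). Cdk1, the kinase that drives entry into mitosis, was at 69.6, 56.7, 47.4, 72.6 and 76.2 FPKM in NSG ATRXCT tumors and at 74.2, 55.7, 75.9, 73.1 and 72.6 FPKM in NSG ATRXKD tumors. Every ATRXKD tumor lay within the range of the controls (log2 difference 0.13 ± 0.14 SE, adjusted p = 0.578, 95% interval -0.17 to 0.44). Ccnb1, its cyclin, was at 45.3, 39.5, 39.9, 53.6 and 51 FPKM and at 62.9, 49.2, 63.3, 63.4 and 60.9 FPKM, 0.38 ± 0.11 (SE, adjusted p = 0.0597). Mouse 27 was the one ATRXKD tumor among the controls. Cdc20, the activator of the APC/C at anaphase, was at 58.6, 53, 53.4, 60.9 and 64 FPKM and at 73.3, 61.9, 76.7, 76.7 and 80.1 FPKM, with only mouse 27 inside the range of the controls, and lay at the threshold (0.34 ± 0.09 SE, adjusted p = 0.0502). Ube2c was at 116, 94.9, 89.4, 126 and 119 FPKM and at 130.0, 96.6, 151, 137 and 149 FPKM, 0.28 ± 0.14 (SE, adjusted p = 0.234). Ccnb2 differed by 0.26 and did not pass.

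Lamin B1 and the condensins gave the largest share, 4 of 5. Lmnb1 (chr18:56707813-56753424 in mm10), a protein of the nuclear lamina that is taken apart in mitosis, was at 23.4, 23.3, 22.1, 24.2 and 25.4 FPKM in NSG ATRXCT tumors and at 37, 36.5, 37.8, 35.4 and 37.7 FPKM in NSG ATRXKD tumors. Both groups were tight, and the difference of 0.62 ± 0.07 (SE, adjusted p = 0.00331) or 1.54-fold had the lowest p of the 50 genes. Ncapd2, a condensin I subunit, was at 17.9, 16.4, 24, 17.3 and 20.2 FPKM and at 24.9, 32.6, 27.4, 27.3 and 33.9 FPKM, 0.59 ± 0.12 (SE, adjusted p = 0.0218). Ncapg, of the same complex, differed by 0.44 ± 0.10 (SE, adjusted p = 0.0304), and Smc4, an ATPase of both condensins, by 0.32 ± 0.08 (SE, adjusted p = 0.0416). Smc2, the other ATPase, was at 22.9, 21.4, 27.2, 23.2 and 28.7 FPKM and at 27.2, 32.4, 30.9, 27.8 and 31.5 FPKM, so that mouse 5 of the controls stood above 2 ATRXKD tumors (0.28 ± 0.10 SE, adjusted p = 0.103).

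In cytokinesis 2 of 4 genes were higher, Prc1, the bundler of the central spindle, by 0.51 ± 0.07 (SE, adjusted p = 0.00679) and Racgap1, a subunit of centralspindlin, by 0.45 ± 0.08 (SE, adjusted p = 0.0134). Anln and Ect2 differed by 0.26 and 0.34 and did not pass. In spindle assembly 1 of 6 passed. Tpx2, the activator of Aurora A at the spindle, was at 22, 25.4, 33.4, 21.8 and 26.4 FPKM in NSG ATRXCT tumors and at 35, 37.8, 35.6, 35.9 and 40.8 FPKM in NSG ATRXKD tumors, 0.52 ± 0.11 (SE, adjusted p = 0.0266). Its control of mouse 3, at 33.4 FPKM, lay just below the lowest ATRXKD tumor. Aspm, which organizes spindle poles, was at 9.98, 6.94, 15.5, 9.19 and 14 FPKM and at 10.3, 18.7, 12.2, 10.3 and 14.1 FPKM, and the groups overlapped (0.24 ± 0.22 SE, adjusted p = 0.521). Nusap1, Hmmr, Dlgap5 and Ckap2l lay between 0.22 and 0.37 and did not pass, although every ATRXKD tumor was above every control for Ckap2l.

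Of the transcription factors Mybl2 (B-Myb), the activator bound to MuvB, was at 8.25, 8.4, 8.92, 9.48 and 9.33 FPKM in NSG ATRXCT tumors and at 12.6, 11.3, 12.1, 13.9 and 13 FPKM in NSG ATRXKD tumors, 0.46 ± 0.09 (SE, adjusted p = 0.0156). The groups did not overlap. Foxm1 was at 13.1, 14.3, 21.1, 14.7 and 17.3 FPKM and at 23, 24.9, 21, 19.3 and 22.1 FPKM, with mouse 3 of the controls above 2 ATRXKD tumors, and did not pass (0.44 ± 0.13 SE, adjusted p = 0.0556). None of the 6 centromere and kinetochore genes passed, 1 of them at an unadjusted p under 0.05. Cenpf, a large kinetochore protein, was at 12.4, 7.07, 16.4, 12.6 and 18.3 FPKM and at 13, 23.1, 14.2, 11.9 and 16.2 FPKM (0.24 ± 0.23 SE, adjusted p = 0.55). Cenpa, the histone of centromeres, had the lowest difference of the 50 (-0.05), and Ndc80, Nuf2 and Spc25 of the NDC80 complex had differences of 0.32, 0.28 and 0.10.

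Mki67, the gene of the Ki-67 antigen used to count dividing cells, did not pass. It was at 32.8, 18.4, 46.9, 31.6 and 48.5 FPKM in NSG ATRXCT tumors and at 31.8, 65, 33.5, 31.5 and 41.5 FPKM in NSG ATRXKD tumors, with a log2 difference of 0.21 ± 0.27 (SE, adjusted p = 0.666) and a 95% interval of -0.38 to 0.79. The groups overlapped, with mouse 27 far above the other ATRXKD tumors and mice 3 and 5 above the other controls. Top2a, topoisomerase II alpha, which untangles sister chromatids, was at 87.8, 80.2, 112, 80.7 and 105 FPKM and at 99.7, 121, 135, 115 and 141 FPKM (0.39 ± 0.13 SE, adjusted p = 0.0801).

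**Figure D4:**
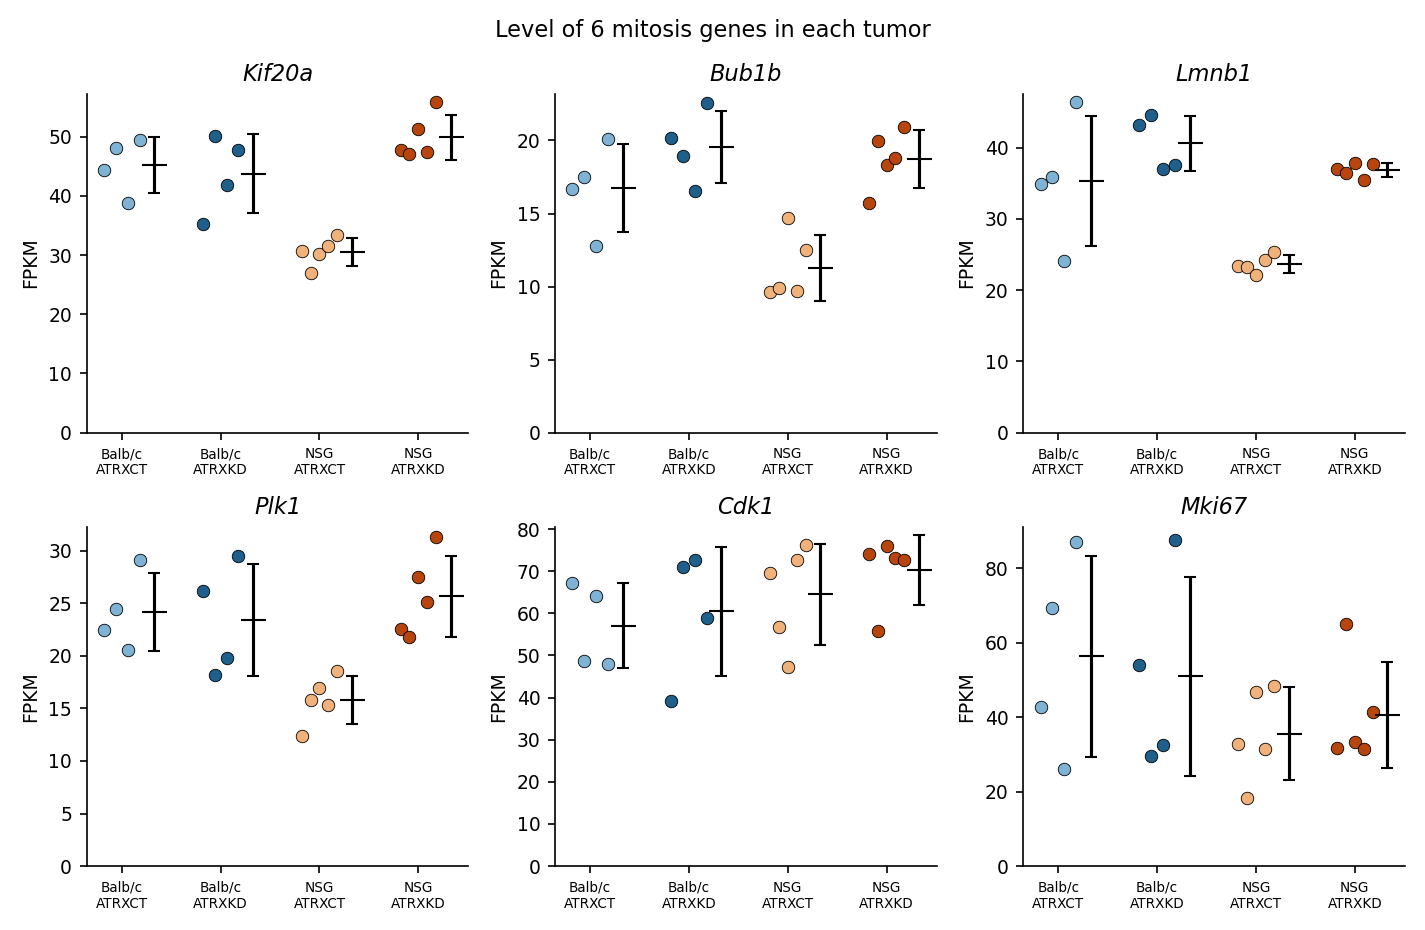
FPKM of 6 mitosis genes in each tumor (points, in order of mouse number) with the mean and SD of each group (black). Kif20a and Lmnb1 are low in all 5 NSG ATRXCT tumors, while Cdk1 and Mki67 overlap between all groups. For Lmnb1 the Balb/c ATRXCT tumor of mouse 44 was as low, at 24.1 FPKM.

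Transcript length moved with the levels of several of these genes. For each tumor, the deviation of every gene from its mean was fitted against the log2 of its transcript length, and the slopes ran from -0.15 to 0.21 per doubling. The slope was over 0.1 in 6 tumors, of Balb/c mice 43, 45, 56 and 60 and NSG mice 3 and 27. These lay in all 4 groups, but the slope was not balanced between hosts. Its median was 0.072 in Balb/c ATRXCT, 0.010 in Balb/c ATRXKD, -0.065 in NSG ATRXCT and -0.043 in NSG ATRXKD tumors. In those 6 tumors Aspm (9866 nt) was at 15.5 to 21.1 FPKM, against 6.94 to 14.4 FPKM in the other 12, and Cenpe (7813 nt) was at 19.4 to 29.8 FPKM, against 8.24 to 19.3 FPKM. Mki67 (10075 nt) was at 46.9 to 87.7 FPKM, against 18.4 to 48.5 FPKM. For Aspm and Cenpe the 6 tumors lay above all 12 others, whatever their group. Atrx, too, was highest within each of the 4 groups in the tumors with a slope over 0.1, and with the length trend removed it differed by -0.78 ± 0.15 (SE, adjusted p = 0.0116) in NSG and by -0.28 ± 0.21 (SE, adjusted p = 0.9996) in Balb/c mice. Mad2l1 (1725 nt) went the other way, at 29.1 to 38.8 FPKM in the 6 tumors, against 38.0 to 55.7 FPKM in the other 12. The 8 genes with transcripts of at least 5000 nt had a median ratio of highest to lowest tumor of 2.87-fold, against 1.95-fold for the 42 shorter ones. Of these 8 long genes 0 passed in NSG mice, against 18 of the 42 others. With the length trend removed from every tumor, 21 genes passed, beside 6.39% of all genes that were higher, 17 of them among the 18, and 1 of the 8 long genes was among the 21. Mki67 then differed by 0.16 ± 0.21 (SE, adjusted p = 0.655), and whether RNA quality had a part was not tested.

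**Figure D5:**
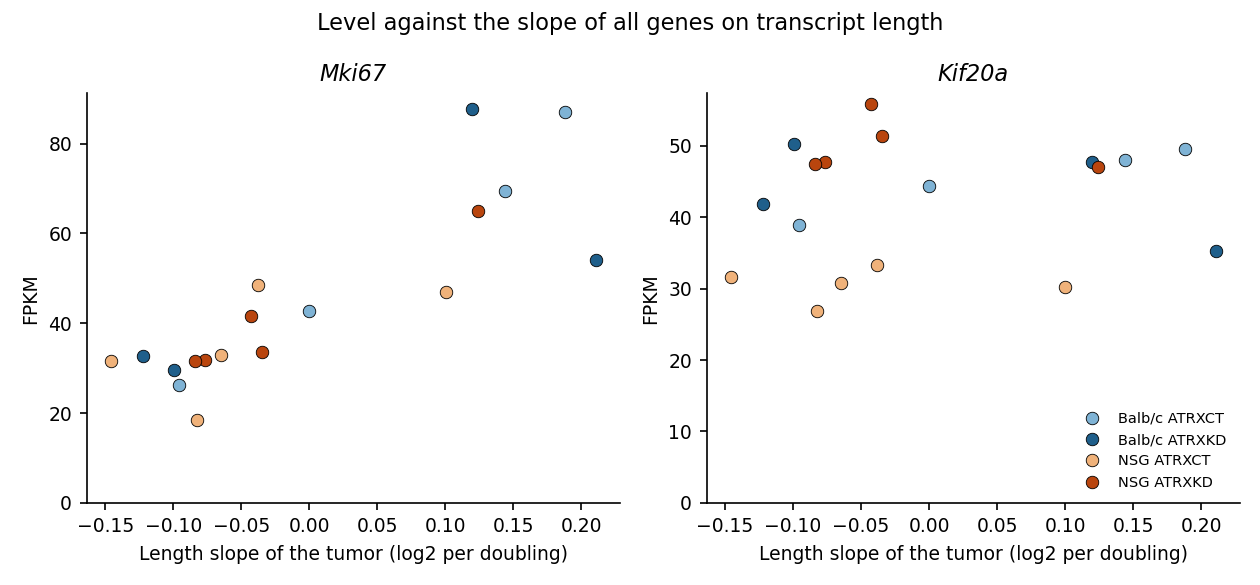
FPKM of Mki67 (left) and Kif20a (right) in each tumor against the slope of all genes on transcript length in that tumor, by group. Mki67 is at 46.9 FPKM or more in the 6 tumors with a slope over 0.1, while Kif20a is lowest in the 5 NSG ATRXCT tumors at any slope.

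In Balb/c mice the same question gave no mitotic gene past the threshold. By limma 0 of the 50 had an adjusted p under 0.05, either way, with 0% of the 14701 genes tested higher at that threshold and 0.0068% called at 2-fold. At an unadjusted p under 0.05 there were 0 higher and 1 lower, against 1.72% and 2.42% of all genes, and with library weights and a robust prior there were also 0. By sign 28 were higher and 22 lower, with a median log2 difference of 0.024 beside -0.0032 over all genes. The SE had a median of 0.17, against 0.12 in NSG mice. Groups did not overlap for 2 of the 50 genes, against 3.18% of genes. Ttk was at 14, 14.8, 12.4 and 18 FPKM in tumors labelled ATRXCT and at 11.4, 11.4, 9.74 and 12.4 FPKM in tumors labelled ATRXKD, all lower (-0.37 ± 0.14 SE, adjusted p = 0.999). Racgap1 was at 79.1, 72.7, 74.1 and 83.9 FPKM and at 86.3, 88.2, 87.3 and 85.8 FPKM, all higher (0.17 ± 0.10 SE, adjusted p = 0.999). Bub1 and Tpx2 had the next lowest p in each direction, with differences of 0.20 ± 0.13 (SE, adjusted p = 0.999) and -0.16 ± 0.14 (SE, adjusted p = 0.999).

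Genes that were higher in NSG ATRXKD tumors had wide intervals around 0 in Balb/c mice. Kif20a was at 44.4, 48, 38.9 and 49.5 FPKM in ATRXCT and at 35.2, 50.2, 41.9 and 47.7 FPKM in ATRXKD tumors, a log2 difference with a 95% interval of -0.37 to 0.27. Lmnb1 was at 34.8, 35.9, 24.1 and 46.4 FPKM and at 43.3, 44.6, 37 and 37.6 FPKM, with an interval of -0.19 to 0.65. Bub1b was at 16.7, 17.5, 12.7 and 20.1 FPKM and at 20.2, 18.9, 16.6 and 22.5 FPKM, with an interval of -0.14 to 0.58. The Kif20a interval stops below its NSG difference of 0.69 and the Bub1b interval below its own of 0.70. The Lmnb1 interval includes its NSG difference of 0.62. These NSG differences have intervals of their own (0.51 to 0.87 for Kif20a, 0.42 to 0.98 for Bub1b and 0.47 to 0.77 for Lmnb1). The test between hosts is the interaction given below. Plk1 was at 22.4, 24.5, 20.5 and 29.1 FPKM and at 26.2, 18.1, 19.8 and 29.5 FPKM, with an interval of -0.46 to 0.35.

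Other kinases and motors also overlapped in Balb/c mice. Aurkb was at 34.3, 32.2, 31.4 and 38.7 FPKM in ATRXCT and at 31.5, 32, 30.7 and 44.5 FPKM in ATRXKD tumors. Bub1 was at 21.5, 22.7, 18.4 and 24.3 FPKM and at 24.8, 23.9, 23.1 and 28.2 FPKM. Mouse 60 was the highest of its host for both genes. Cdk1 was at 67.2, 48.8, 64.2 and 48 FPKM and at 39.2, 71, 72.6 and 59 FPKM, mouse 56 being the lowest of all 18 tumors. Ccnb1 was at 53, 47.7, 65.5 and 43.9 FPKM and at 43.4, 64.8, 65.2 and 60.3 FPKM. Cdc20 was at 56.2, 54.2, 69.1 and 46 FPKM and at 55.4, 68.6, 67.9 and 61.4 FPKM. In both genes 3 of the 4 ATRXKD tumors lay above 3 controls and below the control of mouse 44. Kif11 was at 45, 44.4, 44.9 and 53.6 FPKM and at 38.8, 40.9, 36.1 and 57.5 FPKM, and Ube2c was at 135, 105, 137 and 98.1 FPKM and at 104, 151, 143 and 123 FPKM. The groups overlapped in each of them.

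The transcription factors and long transcripts varied widely in Balb/c tumors. Foxm1 was at 23.8, 26.7, 22.3 and 39.3 FPKM in ATRXCT and at 29.2, 21.5, 17.2 and 33.3 FPKM in ATRXKD tumors, and Mybl2 was at 11.5, 12.8, 10.3 and 14.3 FPKM and at 13.1, 12, 10.4 and 16.4 FPKM. Mki67 was at 42.8, 69.5, 26.2 and 87 FPKM and at 54.2, 29.6, 32.6 and 87.7 FPKM, and Top2a was at 139, 158, 116 and 128 FPKM and at 170.3, 117, 117 and 155 FPKM. For Mki67 the tumors of mice 43, 45, 56 and 60, all with slopes over 0.1, were the high ones of their groups. For Top2a those of mice 43, 56 and 60 were, but that of mouse 45 lay below mouse 41, whose slope was near 0. Cenpf was at 15.7, 31.2, 12.7 and 23 FPKM and at 29.1, 11.9, 13.1 and 31.1 FPKM, and Aspm was at 14.4, 20.8, 11.7 and 17.9 FPKM and at 20.1, 10.7, 12.5 and 21.1 FPKM. Smc2 was at 30.6, 31.1, 25.7 and 32.7 FPKM and at 33.2, 26.7, 28.7 and 36.1 FPKM, and Kif14 was at 5.14, 6.48, 4.48 and 5.41 FPKM and at 7.64, 4.71, 4.87 and 6.71 FPKM. Tpx2 was at 38.5, 42.8, 32.4 and 48.4 FPKM and at 34.9, 34.8, 33.2 and 40.2 FPKM, and Ncapd2 was at 25.8, 31, 20.01 and 36.5 FPKM and at 32.9, 26.4, 22.8 and 40.8 FPKM. The groups overlapped for each of these genes.

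The knock-down difference was then compared between hosts by the interaction in a fit of all 18 tumors. By limma 0 of the 50 genes passed an adjusted p under 0.05, with 0% of the 14803 genes tested. At an unadjusted p under 0.05 there were 17 genes with a smaller difference in Balb/c than in NSG mice, against 5.86% of all genes, and 0 with a larger one, against 4.45%. With library weights and a robust prior 13 passed, beside 8.57% of genes in that direction. By sign 47 had a smaller difference in Balb/c mice, with a median of -0.32 beside 0.0038 over all genes. The lowest p were those of Kif20a, with a difference of -0.74 ± 0.15 (SE, adjusted p = 0.157), and Kif2c, with -0.63 ± 0.15 (SE, adjusted p = 0.188). In the other direction they were those of Cenpa (0.30 ± 0.32 SE, adjusted p = 0.797) and Mad2l1 (0.05 ± 0.28 SE, adjusted p = 0.97). Kif2c was at 20.2 ± 1.25 FPKM (SD, n = 4) in Balb/c ATRXCT, 18.3 ± 2.15 (SD, n = 4) in Balb/c ATRXKD, 14.6 ± 1.71 (SD, n = 5) in NSG ATRXCT and 20.8 ± 2.21 (SD, n = 5) in NSG ATRXKD tumors. NSG ATRXCT was thus the low group for Kif2c as well.

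The hosts were also compared within each kind of cell. These comparisons share the NSG and Balb/c tumors with those above, so they are no independent evidence. The hosts differ in strain and immune status at once, and only the NSG tumors expressed Y-linked genes. Strain, immune status, cage and the source of the Y-linked RNA cannot be told apart here or in the interaction. In ATRXCT tumors 1 of the 50 genes was higher in Balb/c than in NSG mice at an adjusted p under 0.05, against 2.09% of the 14828 genes tested, and 0 were called at 2-fold, against 1.43%. This gene was Kif20a (0.55 ± 0.11 SE, adjusted p = 0.0202), and it no longer passed without Balb/c mouse 41, 43 or 45 or without NSG mouse 1, 2 or 4 (adjusted p = 0.0508 to 0.0787). Without Balb/c mouse 44 the count was 11 (4.34% of all genes higher), and without NSG mouse 3 it was 7 (3.53%). By sign 46 were higher in Balb/c mice, with a median log2 difference of 0.32 beside 0.0084 over all genes. Groups did not overlap for 13 genes, all higher in Balb/c mice, against 4.72% of genes. Among these, Foxm1 differed by 0.75 ± 0.18 (SE, adjusted p = 0.0581), Plk1 by 0.58 ± 0.14 (SE, adjusted p = 0.0539) and Ttk by 0.54 ± 0.16 (SE, adjusted p = 0.101). A fit of all 4 groups passed 13 genes, beside 3.77% of all genes that were higher in Balb/c mice, and library weights passed 17, beside 13.3% of all genes.

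In ATRXKD tumors 0 of the 50 genes differed between hosts at an adjusted p under 0.05 by limma, against 2.8% of the 14669 genes tested that were higher in Balb/c mice, and 0 were called at 2-fold, against 1.39%. At an unadjusted p under 0.05 there were 0 as well, against 9.93% of all genes higher and 6.5% lower. With library weights 1 passed, lower in Balb/c mice, beside 4.57% of all genes that were lower. By sign 23 were higher and 27 lower, with a median of -0.0053 beside -0.016 over all genes. The lowest p in each direction were those of Cdc25c (-0.26 ± 0.13 SE, adjusted p = 0.357), Cdc20 (-0.22 ± 0.11 SE, adjusted p = 0.358), Kif14 (0.24 ± 0.15 SE, adjusted p = 0.457) and Lmnb1 (0.13 ± 0.09 SE, adjusted p = 0.5). Apart from Cd4, the T and NK cell markers were present in the Balb/c tumors and near 0 in the NSG tumors of this comparison. Cd4 was at 4.24 ± 1.32 FPKM (SD, n = 4) in Balb/c ATRXKD and 2.86 ± 0.73 FPKM (SD, n = 5) in NSG ATRXKD tumors. The intervals of the mitotic differences between hosts ran from -0.65 to 1.01 over the 50 genes.

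Other genes of the cell cycle were described by lists. Of 73 other mitotic genes 8 were higher and 0 lower in NSG ATRXKD tumors, with 63 higher by sign and a median log2 difference of 0.20. Over all genes tested 3.73% were higher and 3.05% lower, and 49.8% were higher by sign. Of 29 genes of G1 and S phase 8 were higher and 0 lower, with 24 higher by sign and a median of 0.21. The largest differences were those of Mcm4, a subunit of the replicative helicase, at 44.7 ± 7.93 FPKM in ATRXCT and 73.4 ± 8.45 FPKM in ATRXKD tumors (SD, n = 5 each; 0.71 ± 0.13 SE, adjusted p = 0.0145), and Gtse1, a microtubule-binding protein of G2 and mitosis, at 26 ± 3.98 and 42.4 ± 6.43 FPKM (0.68 ± 0.13 SE, adjusted p = 0.0154). Uhrf1, which maintains DNA methylation behind the fork, differed by 0.65 ± 0.16 (SE, adjusted p = 0.0368), and Mcm3, of the same helicase as Mcm4, by 0.58 ± 0.12 (SE, adjusted p = 0.0223). Replication genes were thus among those that passed, beside the mitotic ones.

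The APC/C subunits, which are used through G1 as well as mitosis, passed in 0 of 16 by limma, with 4 higher at an unadjusted p under 0.05, against 13.8% of all genes, 11 higher by sign and a median of 0.095. Of 20 inhibitors of the cell cycle and subunits of the DREAM complex 0 were higher and 2 lower, against 3.73% and 3.05% of all genes. These were the neighbouring inhibitors Cdkn2b, at 1.77 ± 0.38 FPKM in NSG ATRXCT and 0.943 ± 0.252 FPKM in NSG ATRXKD tumors (SD, n = 5 each; -0.51 ± 0.12 SE, adjusted p = 0.0365), and Cdkn2a, at 0.78 ± 0.309 and 0.267 ± 0.136 FPKM (-0.48 ± 0.12 SE, adjusted p = 0.0441). Both were near or under 2 FPKM, where the log2(FPKM + 1) scale understates a change. Cdkn2a was also higher in Balb/c than in NSG mice within ATRXKD tumors, by 0.98 ± 0.15 (SE, adjusted p = 0.00544), and was the one gene of these 4 lists to pass there. In Balb/c mice the knock-down comparison passed 0 genes of any of the 4 lists, with medians of 0.093 for other mitotic genes and 0.043 for G1 and S phase genes. In ATRXCT tumors the host comparison passed 0 as well, with medians of 0.15 and 0.23.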

How the data were processed

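The authors sequenced ribo-depleted, stranded total RNA of 18 tumors as paired reads of 75 bp, mapped them to mm10 (STAR 2.6.0c), dropped PCR duplicates and reads of low quality, and obtained gene values with Cufflinks 2.2.1 for RefSeq genes. The authors deposited log2(FPKM + 1) values, with 92 ERCC spike-ins (1.44% to 3.04% of each library) that were left out. The log base was settled from FPKM times length, which came to 1.059 to 1.089 times its expected total with base 2 and to 8.09 to 10.81 times with the natural log. How Cufflinks shared reads between similar copies is not given in the sources used here. Fragments per tumor were estimated from the steps of low values for genes with 1 transcript of 600 to 6000 nt, taking fragments of 160 nt. Of those values 34.9% to 38.7% lay within 0.1 of a whole fragment (20% by chance), so whole reads were not recovered and no count test was used. The authors' deposited annotation gave coordinates and transcript lengths.

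The tests were those of limma 3.58.1 in R 4.3.3 (lmFit, eBayes with trend) on log2(FPKM + 1). They covered all genes whose mean reached 0.1 FPKM over the compared tumors, with Benjamini-Hochberg adjustment over all of them; all 50 mitosis genes passed this filter in every fit. A gene was called at an adjusted p under 0.05 and at least 2-fold, and counts without the fold were given too. Each comparison used its 2 groups, and the interaction all 4. Scripts were tested on simulated data. Python 3.11.15 made the figures. Named genes were 16 chosen regulators, the highest and lowest gene, up to 6 genes per comparison and direction with an adjusted p under 0.05 and the largest differences (otherwise the 2 with the lowest p per direction), and up to 4 per comparison and direction from the other lists; remaining genes were added to complete each role. The genes and lists were chosen with earlier results of these data known. Alternatives were a pseudocount of 0.1, median-ratio scaling, a filter at 1 FPKM or none, removal of the length trend, library weights with a robust prior, one fit of all groups, and leaving out each tumor.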

Additional observations from a re-analysis of the deposited data

Results flagged for a closer look

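Within groups, the mean log2(FPKM + 1) over the 50 genes and the levels of 27 genes described by tumor were checked for a single tumor far from the others by Dixon's ratio at 95%, in 112 sets of 4 or 5 tumors. This marked 6 values, where chance alone marks about 1 in 20, or 5.6. The mean over the 50 genes was 5.15 in Balb/c ATRXKD mouse 60, against 4.93 to 4.96 in the other tumors of its group. Aurkb in the same tumor was at 5.51, against 4.99 to 5.04. NSG ATRXKD mouse 27 was low for 3 genes, with Cdk1 at 5.83 against 6.201 to 6.265, Ccnb1 at 5.65 against 5.95 to 6.01 and Racgap1 at 6.49 against 6.62 to 6.66. Kif11 in Balb/c ATRXCT mouse 45 was at 5.77, against 5.50 to 5.52. These 3 tumors, of mice 60, 27 and 45, all had a length slope over 0.1.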

How the results depend on the processing

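At 2-fold, 0 of the 50 genes were called in any of the 5 comparisons under any alternative that kept the fold. Without it, 18 were called for the knock-down in NSG mice and 1 between hosts in ATRXCT tumors. The NSG count of 18 was 33 with library weights, which called 20.1% of all genes higher against 3.73% without them. It was 17 to 21 under the other alternatives that kept all tumors (2.26% to 6.39% of all genes higher). With 1 tumor left out it was 4 to 23, lowest without ATRXKD mouse 30 (0.614%) and highest without ATRXCT mouse 3 (8.76%). The ATRXCT host count of 1 stood beside 2.09% of all genes higher. It was 2 with a pseudocount of 0.1 (2.25% of all genes) and 5 with the length trend removed (2.47%). It was 17 with library weights (13.3%), 13 in the fit of all 4 groups (3.77%) and 0 to 11 with 1 tumor left out (1.28% to 4.34%). Library weights also passed 1 lower gene between hosts in ATRXKD tumors (4.57% of all genes lower), and 13 lower ones in the interaction (8.57%). The causes were not tested. The median difference of the 50 genes moved in every comparison and alternative by less than the spread between tumors, taken as the root mean square of the SDs, over the compared groups, of the tumors' mean level. Near 0 it still changed sign: the Balb/c knock-down median of 0.024 was -0.025 without mouse 44 and -0.022 without mouse 60. The host median in ATRXKD tumors (-0.0053) was 0.0092 to 0.021 without Balb/c mouse 56 or NSG mouse 28 or 30, and -0.080 with library weights. Of the named genes, Kif20a and Lmnb1 kept an adjusted p under 0.05 in NSG mice in every alternative, while Bub1b, Plk1, Ncapd2 and Tpx2 lost it with single tumors left out (highest 0.0849, Tpx2). With library weights the interactions of Kif20a and Kif2c passed (adjusted p = 0.0105 and 0.00724). The Mad2l1 interaction changed sign with 7 of the tumors left out (-0.070 to 0.18). No paired analysis was possible because the groups share no mouse numbers. Groups held 4 or 5 tumors, and counting error, estimated from fragments that were not recovered as whole reads, reached 4.75% of the level (Cdc25c).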
